A study of Rattus norvegicus with 4 samples.

Results

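Genes of mast cells were examined in the prefrontal cortex of newborn rats, which the sample labels call frontal cortex. The set consists of 9 genes that encode granule proteases (Cma1, Cpa3, Tpsab1, Tpsb2), the enzyme that makes histamine (Hdc), chains of the receptor for immunoglobulin E (Ms4a2, Fcer1a), the receptor of stem cell factor (Kit) and a transcription factor (Gata2). They were picked by gene symbol, with the BPA-to-control ratios of these same libraries known, so that those ratios are given as a description without a test. Of the 9, 8 were listed in all 4 libraries, which listed 16782 transcripts in males and 16819 in females, and the expression of Fcer1a was not analyzed here. All animals were labelled as Wistar rats at postnatal day 1, while the methods name the strain Wistar Furth and give postnatal days 1 to 2. Their dams had received bisphenol A (BPA), a constituent of polycarbonate plastics, at 5000 µg/kg of maternal body weight, or vehicle, daily from the first gestational day until birth. Vehicle was ethanol in corn oil. There was 1 library for each sex and treatment. The methods describe pups of independent litters, and whether a library pooled them is not given in the sources used here. Each comparison within a sex therefore sets 1 library against 1, without a replicate check, and compares those libraries, not the conditions.

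Mast cells are immune cells that arise from blood progenitors and settle around vessels and in connective tissue. In the brain they are known from the meninges and from the surroundings of vessels, and they are more numerous early in life than in the adult. Their granules hold chymases, tryptases and carboxypeptidase A3 together with histamine and heparin, and cross-linking of immunoglobulin E on their high-affinity receptor releases these contents. Kit signaling is needed for their survival, and GATA2 is required for their formation and for the expression of several granule and receptor genes.

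The values are FPKM, fragments scaled to transcript length and to sequencing depth, with 0.01 as the lowest value in place of 0. Scarce genes move in steps of 1 fragment, and these steps gave depths of 8960250 to 9254250 fragments per library. Between 84.4 and 85.8% of the scarce transcripts used for this came within 0.1 of a whole number. At this depth, 1 fragment of Cma1 in control male was worth 0.118 FPKM, so that most genes described here rest on few fragments. The 95% intervals given below are exact and cover counting error only, not the variation between animals. The Y-linked gene Eif2s3y had 52.77 and 47.18 FPKM in the male libraries and at most 0.07 in the female libraries, which matches the labelled sex. Neurons of the cortex were well represented, with a sum of 652 to 743 FPKM over 8 pyramidal neuron genes.

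Cma1 (NCBI Gene 25627), which encodes the chymase called mast cell protease 5 in rats, had 3.41 FPKM in the control and 0.36 in the BPA library of males, and 2.31 and 0.97 in those of females. These values correspond to 29, 3, 19 and 8 fragments. Both control libraries thus lay above both BPA libraries. The level was 9.60-fold lower with BPA in males (interval 2.98 to 49.3) and 2.38-fold lower in females (interval 0.997 to 6.30, which includes equality). In such bulk samples, fewer mast cells and less RNA per cell cannot be told apart, here and for the genes that follow.

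Cpa3 (NCBI Gene 54242), the mast cell carboxypeptidase, showed 3.21 (control) and 0.55 (BPA) FPKM in males and 3.56 and 0.48 in females. With 41, 7, 44 and 6 fragments, it differed little between libraries of the same treatment and was well separated between treatments. The level was 5.82-fold lower with BPA in males (interval 2.59 to 15.4) and 7.36-fold lower in females (interval 3.13 to 21.1).

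Tpsab1 (NCBI Gene 54271), a tryptase also known as mast cell protease 7, had 4.83 FPKM in the control and 0.65 in the BPA library of males, and 2.01 and 0.29 in those of females, from 52, 7, 21 and 3 fragments. It was the most abundant of the 4 proteases in control male and was again separated by treatment. The level was 7.38-fold lower with BPA in males (interval 3.34 to 19.3) and 7.03-fold lower in females (interval 2.10 to 36.8). Control female nevertheless stood below control male, by 1.09 on the log2 scale.

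Tpsb2 (NCBI Gene 29268), the other tryptase, did not follow this order. It had 1.04 (control) and 1.15 (BPA) FPKM in males and 0.64 and 0.21 in females, from 10, 11, 6 and 2 fragments. The treatments overlapped, because BPA male held the highest value. The ratio of BPA to control was 1.11 in males (interval 0.427 to 2.91) and 0.332 in females (interval 0.0328 to 1.86). Both tryptase genes belong to one family. The methods name RSEM for the expression levels without describing how reads that match both were shared out, so that the split between them is uncertain.

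**Figure D1:**
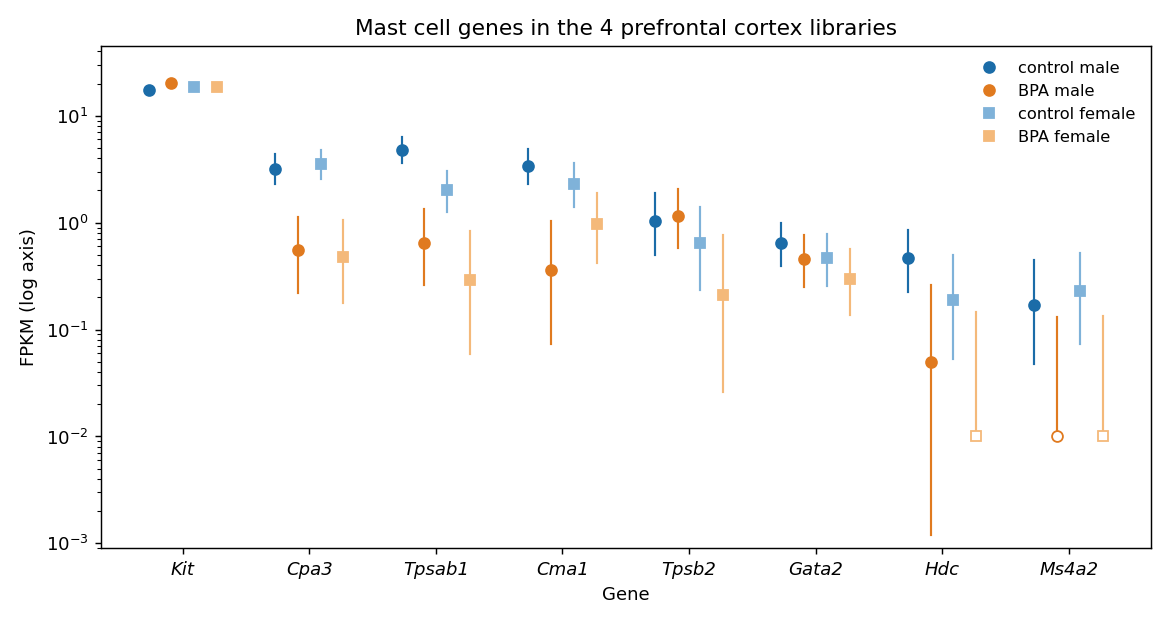
FPKM (log axis) of 8 mast cell genes in the 4 libraries, with 1 library per symbol and vertical lines for the 95% counting interval. Open symbols mark genes listed at 0.01, with no fragment, and their lines run from 0.01 to the level of 3 fragments. Cpa3, Tpsab1 and Cma1 stand lower in both BPA libraries, whereas Kit lies between 17.35 and 20.44 FPKM in all 4.

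When the 4 proteases were summed, males held 12.49 FPKM in the control and 2.71 in the BPA library, and females 8.52 and 1.95. The sums rest on 132, 28, 90 and 19 fragments. From the depth-scaled fragments, the summed proteases were 4.68-fold lower with BPA in males (interval 3.10 to 7.32) and 4.75-fold lower in females (interval 2.88 to 8.26). On the same scale, females were at 0.704 of the male level among controls (interval 0.533 to 0.928) and at 0.694 among BPA libraries (interval 0.366 to 1.29). The composition of the sum also differed, since Tpsb2 made up 7.58% of the protease fragments in control male (interval 3.69 to 13.5) and 39.3% in BPA male (interval 21.5 to 59.4). In females its share was 6.67% in the control (interval 2.49 to 13.9) and 10.5% with BPA (interval 1.30 to 33.1).

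Because GATA2 belongs to the set, the 250 bases before the transcription start were searched for GATA letters on either strand. The words were AGATAA and TGATAA as well as AGATAG and also TGATAG. The sequences are those of RefSeq on the build GRCr8, matched by symbol for 8 of the 9 genes, while the libraries were mapped to Rnor_6.0. Ms4a2 had no entry. Any of the 4 words occurred in 27.0% of 33469 promoters, and in 3 of the 8 of the set (37.5%), those of Cma1, Cpa3 and Fcer1a. AGATAA alone occurred in 10.3% of all promoters, and in 3.70% it began within 100 bases of the start. In Cma1 it began 64 bases and in Cpa3 55 bases before the start, on the strand of the gene, and Cpa3 held a further word 249 bases before the start. In Fcer1a it began 93 bases before the start, on the other strand. The promoter of Mcpt1l1, a chymase gene described further on, held TGATAA 103 bases before the start. Those of Tpsab1, Tpsb2, Hdc, Gata2 and Kit held none of these words. The sequences of Cma1, Cpa3, Mcpt1l1 and Tpsab1, granule protease genes that were among those with both controls above both BPA libraries, are shown 5′ to 3′ on the strand of the gene, together with that of Tpsb2, which did not show this order, and capitals mark the matched words.
Cma1 (chr15:33390134-33390383, - strand): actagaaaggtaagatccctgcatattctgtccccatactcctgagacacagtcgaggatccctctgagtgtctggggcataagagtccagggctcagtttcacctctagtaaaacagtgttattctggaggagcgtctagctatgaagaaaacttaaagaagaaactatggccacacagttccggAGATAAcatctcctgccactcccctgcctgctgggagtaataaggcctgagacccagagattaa
Cpa3 (chr2:104673238-104673487, - strand): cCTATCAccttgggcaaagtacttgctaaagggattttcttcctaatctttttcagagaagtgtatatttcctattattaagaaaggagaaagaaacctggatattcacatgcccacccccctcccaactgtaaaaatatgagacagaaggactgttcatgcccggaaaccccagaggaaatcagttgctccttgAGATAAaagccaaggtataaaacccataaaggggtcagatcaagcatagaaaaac
Mcpt1l1 (chr15:33876896-33877145, - strand): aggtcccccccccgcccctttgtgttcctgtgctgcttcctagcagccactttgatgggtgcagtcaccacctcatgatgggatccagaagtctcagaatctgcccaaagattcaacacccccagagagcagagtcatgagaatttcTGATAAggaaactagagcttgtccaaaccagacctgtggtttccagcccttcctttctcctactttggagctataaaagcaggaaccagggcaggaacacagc
Tpsab1 (chr10:14867303-14867552, - strand): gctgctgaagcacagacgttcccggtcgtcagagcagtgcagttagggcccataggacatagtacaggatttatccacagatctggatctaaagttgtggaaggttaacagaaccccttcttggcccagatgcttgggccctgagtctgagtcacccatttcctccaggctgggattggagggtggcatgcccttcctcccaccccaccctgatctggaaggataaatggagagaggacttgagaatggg
Tpsb2 (chr10:14886060-14886309, + strand): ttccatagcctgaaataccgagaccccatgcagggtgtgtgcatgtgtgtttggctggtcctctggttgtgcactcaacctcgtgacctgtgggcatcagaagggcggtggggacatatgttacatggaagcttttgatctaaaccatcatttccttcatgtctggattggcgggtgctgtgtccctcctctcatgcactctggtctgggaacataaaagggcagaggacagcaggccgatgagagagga
AGATAA is thus found in Cma1, Cpa3 and Fcer1a and not in either tryptase window. A match of letters is not evidence of binding, and its absence says nothing about the factor.

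Hdc (NCBI Gene 24443), histidine decarboxylase, is the only enzyme that forms histamine from histidine, and in the brain it also marks histamine neurons of the hypothalamus. In males it had 0.47 (control) and 0.05 (BPA) FPKM, from 10 fragments and 1. In females the control had 0.19, from 4 fragments, and the BPA library was listed at 0.01, with 0 fragments. The level was 9.94-fold lower with BPA in males, with an interval of 1.41 to 431. In females, with 0 fragments against 4, the interval of the ratio of BPA to control reached up to 1.51 and thus included equality.

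Ms4a2 (NCBI Gene 25316), the beta chain of the high-affinity receptor for immunoglobulin E, had 0.17 (male) and 0.23 (female) FPKM among controls, from 4 and 5 fragments, and was listed at 0.01 in both BPA libraries. The interval of the ratio of BPA to control reached up to 1.52 in males and 1.09 in females, so that it included equality in both sexes. When 3 fragments are taken as the limit, a count of 0 allows a level of up to 0.131 FPKM in BPA male and 0.134 in BPA female.

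Gata2 (NCBI Gene 25159) encodes a transcription factor of blood progenitors and mast cells that endothelial cells also express. It had 0.65 (control) and 0.46 (BPA) FPKM in males and 0.47 and 0.30 in females, from 20, 14, 14 and 9 fragments. BPA male and control female were nearly equal, so that the treatments were barely separated. The ratio of BPA to control was 0.705 in males (interval 0.329 to 1.47) and 0.640 in females (interval 0.245 to 1.59).

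Kit (NCBI Gene 64030) differed from the other genes in level and in pattern. It had 17.35 FPKM in the control and 20.44 in the BPA library of males, and 18.57 and 18.73 in those of females, from 741, 867, 768 and 777 fragments. All libraries lay close together, and BPA male was the highest. The ratio of BPA to control was 1.18 in males (interval 1.07 to 1.30) and 1.01 in females (interval 0.911 to 1.12). Kit is known in mast cells, melanocytes and blood progenitors and also in neurons of the brain, and its transcript alone does not mark mast cells in this tissue.

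**Figure D2:**
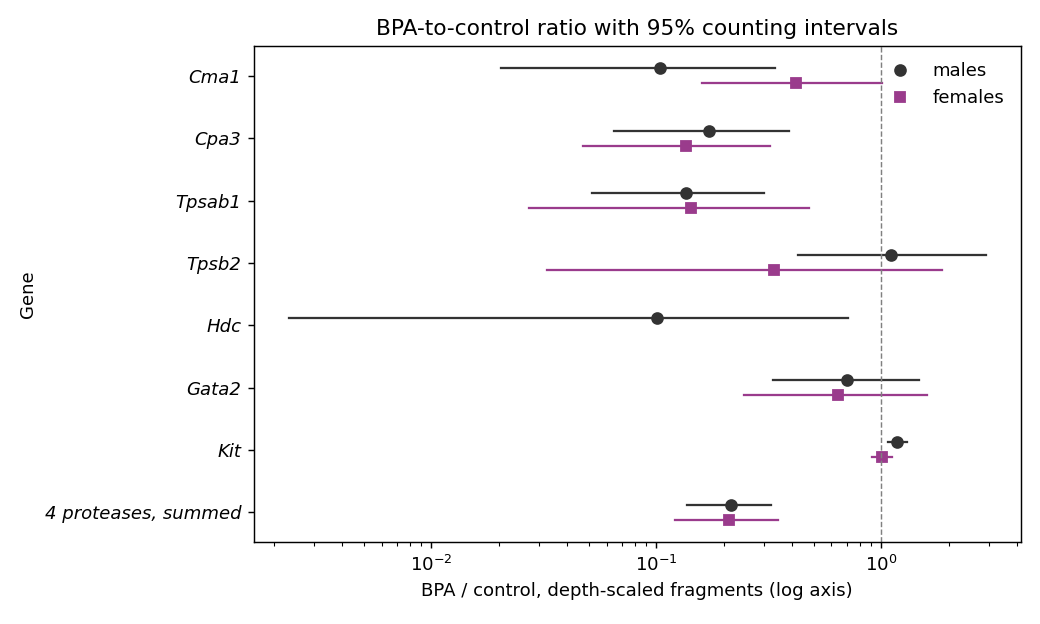
Ratio of BPA to control (log axis) from depth-scaled fragments in males (circles) and females (squares), with 95% counting intervals as lines and equality as the dashed line. Hdc in females and Ms4a2 have no fragment in BPA and are not drawn as ratios. The summed proteases lie at the same place in both sexes, 4.68-fold and 4.75-fold below control.

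On the scale of log2(BPA + 0.5) minus log2(control + 0.5), which compresses differences of scarce genes, 3 of 8 genes were lower by 1 or more in males (Cma1, Cpa3, Tpsab1), against 1.84% of 13071 genes with a mean of at least 1 FPKM and 5.58% of 2365 scarcer genes with a mean above 0.1. In females 2 of 8 were (Cpa3, Tpsab1), against 2.88 and 7.44%. Both sexes shared 2, against 0.704 and 1.23%. Without any filter on the mean, 2.32% of 16045 genes were lower in males, 3.44% in females and 0.754% in both. No gene of the 8 was higher by 1 or more, against 1.16% in males and 1.11% in females of the more abundant genes, 3.97 and 3.55% of the scarcer ones and 1.53 and 1.43% without the filter. The median log2 ratio of the 8 was -0.62 in males and -0.61 in females. Over the 13071 genes it was -0.04 in both sexes, and over the 2365 scarcer genes -0.10 in males and -0.17 in females. With 0.1 added in place of 0.5, 5 genes in males and 6 in females were past this threshold, against 2.77 and 4.15% of the more abundant genes and 20.1 and 24.9% of the scarcer ones, and 5 genes in both sexes, against 1.06 and 7.36%. With ratios of recovered fragments plus 0.5, an alternative added after the data were seen, 5 genes in males, 6 in females and 5 in both were lower by 1 or more, against 2.95, 4.41 and 1.18% of the more abundant genes and 25.4, 30.5 and 10.8% of the scarcer ones. Both control libraries exceeded both BPA libraries for 6 of the 8, whereas this held for 32.0% of the more abundant and 28.8% of the scarcer genes, and for 31.0% without the filter. The opposite order, which 0 of the 8 showed, held for 18.7, 10.7 and 17.1%. The set was picked on this contrast, and nothing is read from these counts. Of the 8, 4 had a mean of at least 1 FPKM (Cma1, Cpa3, Tpsab1 and Kit). Cma1, Cpa3 and Tpsab1 reached it only through their control libraries.

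To set these genes beside the rest of the mast cell program, further genes were grouped in lists and tested with limma over all 13071 genes with a mean of at least 1 FPKM, taking the male and the female library of a treatment as its 2 replicates. After Benjamini-Hochberg adjustment, 98 genes (0.75%) had a p under 0.05, 82 of which were lower with BPA (0.627%) and 16 higher (0.122%). Before adjustment, 2295 genes (17.6%) had a p under 0.05, the share to hold beside the unadjusted counts of the lists. Of 7 other granule proteases and processing enzymes that were measured, 2 were tested and 1 was called lower by limma. This was Mcpt1l1 (NCBI Gene 100360872), a chymase gene related to mast cell protease 1. It had 6.12 FPKM in the control and 0.88 in the BPA library of males, and 4.97 and 0.45 in those of females, from 56, 8, 44 and 4 fragments. It thus exceeded each of the 4 proteases above in both control libraries and was lower in both BPA libraries than in either control. The level of Mcpt1l1 was 6.95-fold lower with BPA in males (interval 3.30 to 16.9) and 11.04-fold lower in females (interval 4.02 to 42.3). Mcpt1l1 reached the mean of 1 FPKM only through its control libraries, its list was chosen with results of these data known, and its call was lost without any one library, so that the call is not used as support. Reads shared with other chymase genes of its family may be split among them. Ctsc, the protease that activates granule enzymes, had 3.38 (control) and 1.46 (BPA) FPKM in males and 3.06 and 1.93 in females (adjusted p = 0.174 from limma). Among genes with a mean under 1 FPKM, the membrane peptidase Dpp4 had 0.88 (control) and 0.59 (BPA) FPKM in males and 1.57 and 0.84 in females. The tryptase Tpsg1 was listed higher with BPA, with 0.01 (control) and 0.31 (BPA) FPKM in males and 0.21 and 0.32 in females. Such levels rest on few fragments, as Tpsb2 in BPA female had 0.21 FPKM from 2 fragments. Of the 6 genes of this list found in all libraries, 4 had a log2 ratio below 0 in males and 4 in females. The median over all 13071 genes was also below 0, at -0.04 in both sexes.

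Of 13 genes of granule storage and histamine handling, 1 was called lower, and the median log2 ratio was -0.22 in males and -0.08 in females. Cd63, a membrane protein of granules and late endosomes that most cells express, had 72.95 (control) and 50.02 (BPA) FPKM in males and 73.58 and 50.37 in females. Cd63 fell by 0.54 on the log2 scale (standard error 0.0563, adjusted p = 0.0280 from limma), and without any one library its adjusted p was 0.114 to 0.189. The lysosomal membrane protein Lamp1, at 87.86 to 94.88 FPKM, and Ndst1, an enzyme of heparan sulfate synthesis, at 25.79 to 28.77, differed little between libraries. Of 4 histamine receptors, only Hrh3, at 1.23 to 1.74 FPKM, was abundant enough to be tested, and it was not called. Hrh2 had 0.53 to 0.77 FPKM.

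In the signaling pathways, limma called 0 of 5 tested genes around the receptor for immunoglobulin E and 0 of 10 tested genes around Kit, where 1 and 2 had an unadjusted p under 0.05. The gamma chain Fcer1g, which the receptor shares with other Fc receptors of myeloid cells, had 7.78 (control) and 6.01 (BPA) FPKM in males and 8.79 and 3.16 in females (adjusted p = 0.202 from limma). The kinase Fyn, the phospholipase Plcg1 and the adaptor Gab2 are also used by many other cells, and they had 113.32 to 122.51, 34.58 to 39.11 and 18.97 to 20.34 FPKM. Kitlg, stem cell factor and thus the ligand of Kit, had 32.69 (control) and 30.62 (BPA) FPKM in males and 34.29 and 31.01 in females (adjusted p = 0.400 from limma). Grb2, Ptpn11 and Pik3r1, which carry the Kit signal, lay at 91.59 to 95.55, 45.60 to 50.61 and 30.40 to 32.30 FPKM. Among 14 transcription factors of the mast cell lineage, 7 were tested and 0 called by limma, with 2 under 0.05 before adjustment. Lmo2, a partner of GATA factors, had 9.29 (control) and 7.04 (BPA) FPKM in males and 9.47 and 6.0 in females (adjusted p = 0.134 from limma), and Ldb1, which bridges such complexes, had 54.71 (control) and 66.56 (BPA) FPKM in males and 56.39 and 64.88 in females (adjusted p = 0.134 from limma). Of 9 surface receptors and growth factors, 4 were tested and 0 called by limma, with 0 under 0.05 before adjustment, and the most abundant, Il3ra, had 2.70 to 3.63 FPKM. None of 8 measured eicosanoid genes and none of 3 measured genes of basophils and eosinophils reached the limit for testing. Prg2, a granule protein of eosinophils, had 0.27 (control) and 0.01 (BPA) FPKM in males and 0.14 and 0.01 in females, where 0.01 stands for no fragment. The median log2 ratio of the list genes in males and females was -0.06 and -0.09 for the receptor pathway, -0.18 and -0.19 for the Kit pathway and -0.02 and -0.42 for the transcription factors.

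**Figure D3:**
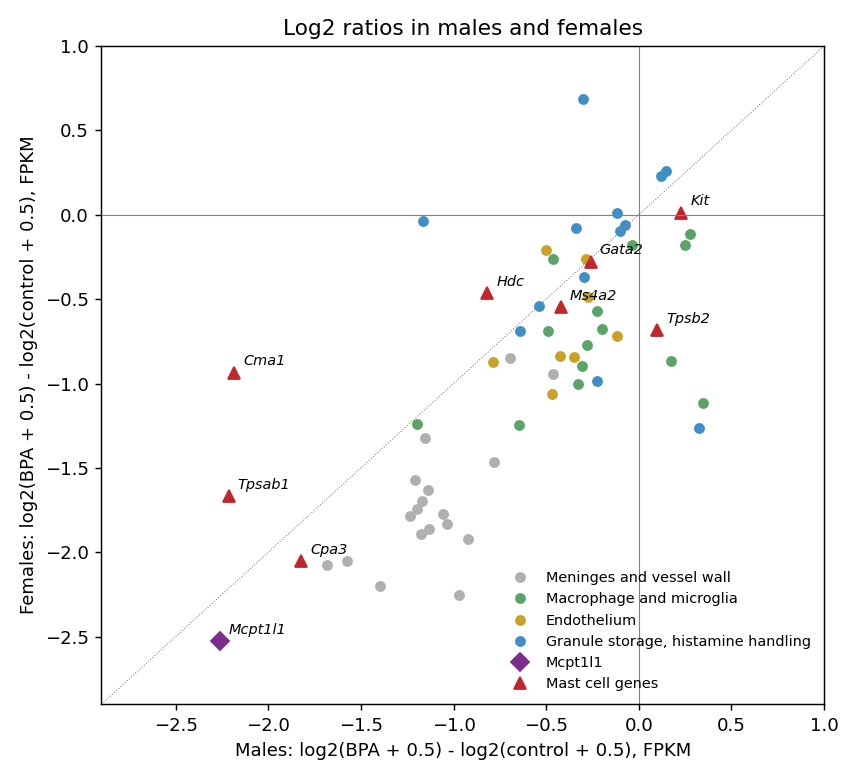
Log2 ratios of BPA to control in males (horizontal) and females (vertical) after 0.5 was added to each FPKM, 1 point per gene, with the dotted line marking equal ratios. Mcpt1l1, Cpa3 and Tpsab1 lie at the lower left, Kit near 0, and the meninges and vessel wall genes below the dotted line.

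Mast cells of the brain lie with the meninges and vessels, so the genes of these tissues were set beside the proteases. The methods state that the meninges were taken off during dissection. All 18 genes of a meninges and vessel wall list were measured, and 18 of 18 were lower in both BPA libraries than in both control libraries, an order that 32.0% of the 13071 genes showed. In males they summed to 584 FPKM in the control and 267 in the BPA library, and in females to 746 and 188. The median log2 ratio was -1.14 in males and -1.78 in females. Limma called 11 of the 18 lower, against 0.627% of all genes tested, namely the collagens Col1a1, Col1a2 and Col3a1, the matrix proteins Bgn, Dcn and Ogn, the transporters Slc22a6 and Slc6a13, the junction proteins Cldn11 and Gjb2, and the growth factor Igf2. Igf2 had 61.22 (control) and 18.69 (BPA) FPKM in males and 61.10 and 14.13 in females and fell by 1.88 on the log2 scale (adjusted p = 0.0219 from limma, standard error 0.128). Without any one library, the adjusted p of Igf2 was 0.0471 to 0.0590, and the calls of the other 10 were lost each time. The most abundant gene of the list, the prostaglandin D synthase Ptgds, had 214.04 (control) and 109.08 (BPA) FPKM in males and 320.00 and 66.86 in females (adjusted p = 0.0669 from limma). Relative to control, the summed list was at 0.456 in males and 0.253 in females. The list was chosen with results of these data known, so that its counts are a description and are not used as support. Foxd1 and Tbx18 of this list reached the mean needed for testing only through their control libraries. The part of meningeal tissue in the protease values was not tested.

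In the remaining cell types near vessels limma made no call. The ratio of BPA to control of the summed endothelial list was 0.829 in males and 0.602 in females, with 0 of 8 genes called and 6 under 0.05 before adjustment. For the macrophage and microglia list it was 0.853 and 0.587, with 0 of 9 tested genes called and 3 under 0.05 before adjustment. Of its 14 genes, 10 had a log2 ratio below 0 in males and 14 in females, with medians of -0.25 and -0.73. The median over all 13071 genes was also below 0, at -0.04 in both sexes. Aif1, the gene of this list with the highest mean, had 9.14 (control) and 7.30 (BPA) FPKM in males and 8.03 and 4.08 in females (adjusted p = 0.285 from limma). Csf1r, the receptor on which microglia depend, had 7.13 (control) and 6.93 (BPA) FPKM in males and 7.37 and 6.45 in females, and the complement gene C1qa had 7.50 (control) and 5.87 (BPA) FPKM in males and 9.03 and 4.26 in females (adjusted p = 0.160 from limma). Lyve1, Mrc1, Cd163 and Pf4, genes of macrophages at brain borders, were chosen after their values were seen. Lyve1 had 4.62 (control) and 1.73 (BPA) FPKM in males and 5.48 and 2.03 in females (adjusted p = 0.0588 from limma). Mrc1 had 2.99 (control) and 1.73 (BPA) FPKM in males and 4.15 and 1.46 in females (adjusted p = 0.136 from limma). Cd163 was higher with BPA in males, with 0.68 (control) and 1.00 (BPA) FPKM in males and 1.21 and 0.29 in females. Pf4 had 2.50 (control) and 1.68 (BPA) FPKM in males and 2.15 and 1.71 in females. C1qb, which microglia express as well, was also higher with BPA in males, with 5.83 (control) and 7.18 (BPA) FPKM in males and 6.75 and 6.20 in females. The part of these cells in the protease values was not tested. Blood was present, with Hba1 at 516 to 638 FPKM, and 0 of 3 tested genes of that list were called by limma, none of them under 0.05 before adjustment.

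**Figure D4:**
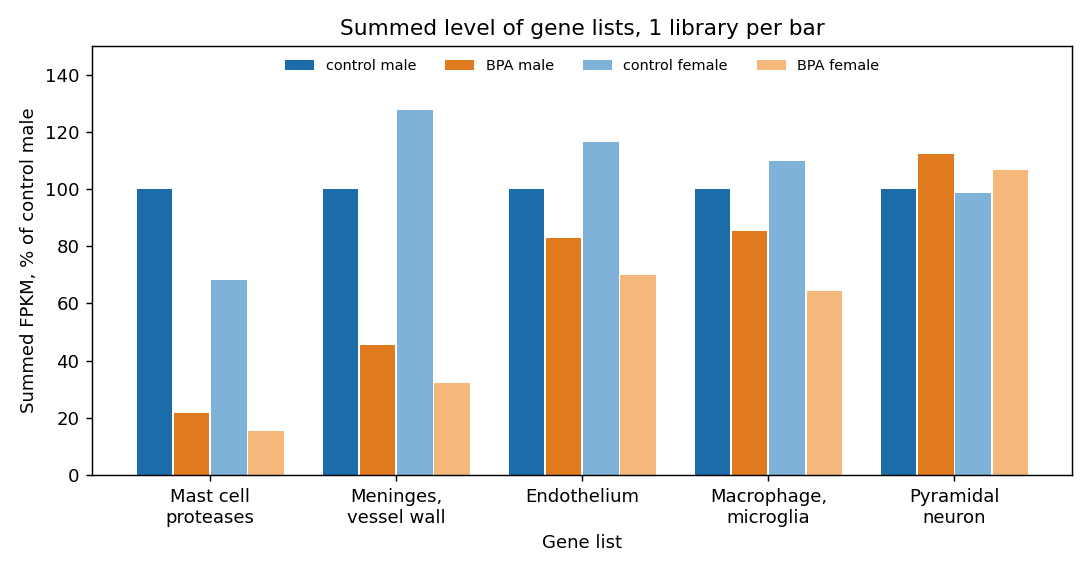
Summed FPKM of the mast cell proteases and of other gene lists as a percentage of control male, with 1 library per bar and no replicate error. The proteases stand at 21.7% in BPA male and 15.6% in BPA female, the meninges and vessel wall list at 45.6 and 32.3%, and the pyramidal neuron list at 112 and 107%. Control female stands at 68.2, 128 and 98.6% for these lists, so that the bars of BPA female are not ratios to control female.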

How the data were processed

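Samples were 4 RNA-seq libraries, 1 for each sex and treatment, grouped by their titles. According to the methods and the submitters' processing notes, polyadenylated RNA was sequenced on an Illumina HiSeq, clean reads were mapped to Rnor_6.0 (rn6) with Bowtie 2, HISAT is also named, and expression was calculated with RSEM. Versions are not given in the sources used here. The deposited values are FPKM, which the authors had scaled to transcript length and depth, with 2 decimals.

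Values of 0.01 were taken as 0. FPKM was summed per symbol, and 272 of 3411 assembled transcripts received a symbol through their annotated protein in the RefSeq table of GRCr8, which matched 13923 of 14008 Gene IDs. None of them was assigned to a gene of the set. Depth was recovered as the number of fragments that brought FPKM times length minus 60 bases closest to whole numbers, and was tested on simulated data. Ratio intervals are exact conditional (Clopper-Pearson) intervals at 95%. limma 3.58.1 (R 4.3.3) was fitted with a trend to log2(FPKM + 0.5) of genes whose mean reached 1 FPKM, with treatment as the only term, which leaves 2 residual degrees of freedom, and was tested on simulated data. P-values measure the spread between 1 male and 1 female library, with each gene's variance drawn towards the trend over all tested genes. Other computations used Python 3.11.15, numpy 2.4.6, pandas 2.3.3, scipy 1.17.1 and matplotlib 3.10.9.

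The genes and lists were chosen with earlier results of these data known. All genes found of the set were named. From each other list, up to 4 genes with the highest mean and those called by limma could be named, and outside the lists the 5 genes with the nearest profile. Lyve1, Mrc1, Cd163 and Pf4 are exceptions, chosen after their values were seen. The values of 1 gene of the granule storage list are not reported here. The alternatives concerned the pseudocount, the filter, centring, quantile normalization, single transcripts, sex as a term and each library left out. The use of recovered fragments was chosen after seeing the data.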

Additional observations from a re-analysis of the deposited data

Results flagged for a closer look

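Tpsb2 was the only gene of the set whose log2 ratio of BPA to control had opposite signs in the sexes, at 0.10 in males and -0.68 in females. With 1 library per sex and treatment, the difference was not tested, and it rests on 10 and 11 fragments in males and on 6 and 2 in females.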

How the results depend on the processing

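For the mast cell genes with 0.1 added in place of 0.5, 5 genes in males, 6 in females and 5 in both sexes were lower by 1 or more, and the medians were -1.68 and -1.40. With 1 added, the medians were -0.36 and -0.37. Centring on the median of all genes gave -0.58 and -0.57. Ratios of recovered fragments, an alternative chosen after seeing the data, gave 5, 6 and 5 genes and medians of -2.63 and -2.00. Of 80 single ratios under these alternatives and the highest single transcript, 0 changed sign. Of the 80, 2 left the counting interval of their fragment ratio, both with 1 added (Hdc in males to -0.49 and Cpa3 in females to -1.62). Adding another constant cannot change a sign. Each gene had 1 transcript listed, so that the single-transcript ratios repeat the main ones. The lack of sign changes was thus largely fixed in advance.
Over all genes and in either direction, 617 of 16045 were past a log2 ratio of 1 in males without the filter on low values, instead of 391 of 13071. The 98 genes called by limma became 30 after quantile normalization and 0 without the filter (2626 with an unadjusted p under 0.05). With one library left out, limma called 0 to 6, with 1433 to 1913 unadjusted, and none without BPA female, and the lists' calls other than that of Igf2 without BPA male were lost. No pairing of animals is given by the labels. With sex as a replicate block, limma called 144 genes and 12 of the 18 meninges genes, with Lum added. That block rests on the sex of the libraries alone. At these depths, differences of Hdc, Ms4a2, Gata2 and Tpsb2, and that of Cma1 in females, are limited by fragment number.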

Other observations

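Among 10627 named genes outside the lists with a mean of at least 1 FPKM, the 5 whose centred log2 values over the 4 libraries lay closest to the mean profile of Cma1, Cpa3, Tpsab1 and Kit were St8sia5, Aifm3, Gsta1, Atp6ap1l and Cd302, with root mean square distances of 0.116 to 0.169. St8sia5, a sialyltransferase of ganglioside synthesis, had 3.13 (control) and 1.02 (BPA) FPKM in males and 3.03 and 1.04 in females. Gsta1, a glutathione transferase, had 3.29, 0.68, 2.10 and 0.50 FPKM in the same order. A profile over 4 libraries holds little more than the difference between treatments, and its likeness is a description. The mean profile includes Kit, which did not share the pattern of the proteases, and is thus not a protease profile. In males and females, the log2 ratios were -1.26 and -1.20 for St8sia5 and -1.82 and -2.05 for Cpa3. Cma1, Cpa3 and Tpsab1 also reached the mean of 1 FPKM only through their control libraries.

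Among neuronal lists, limma called 1 of 9 interneuron genes lower, Calb2 (log2 ratio -1.20, adjusted p = 0.0245), which had 40.02 and 33.96 FPKM in controls and 17.17 and 14.41 with BPA. Of 8 pyramidal neuron genes, 1 was called higher, Neurod2 (log2 ratio 0.50, adjusted p = 0.0445), and 1 lower, Slc17a7 (log2 ratio -0.79, adjusted p = 0.0246), the vesicular glutamate transporter. Without any one library, limma called none of these 3, with adjusted p of 0.0722 to 0.237.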
